A study of Mus musculus with 6 samples.

Results

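The aldehyde dehydrogenases described here are 10 genes of the family that KS100 inhibits, out of 43629 genes in the count table: Aldh2, Aldh1a1, Aldh1a3, Aldh1b1, Aldh3a2, Aldh4a1, Aldh6a1, Aldh7a1, Aldh9a1 and Aldh18a1. They were taken by symbol, through their Ensembl identifiers, and all 10 were found. Transcripts were counted in tumours of B16F10, a mouse melanoma line, grown under the skin of 8-week-old female C57BL/6J mice and taken once control tumours measured 2000 mm3. There were 6 pools, each sequenced as 1 library from the combined tumours of 1 treatment: KS100 with control IgG (the KS100 pool), KS100 with anti-PD-1, AZD5363 and MK1775 with control IgG, AZD5363 and MK1775 with anti-PD-1, DMSO with anti-PD-1 (anti-PD-1 alone), and DMSO with control IgG (the control pool). AZD5363 and MK1775 inhibit the kinases AKT and WEE1, and anti-PD-1 is an antibody against a T cell checkpoint receptor. The comparisons ask whether transcripts of the enzymes differed where KS100 was given, where AZD5363 and MK1775 were given, and where the antibody was added.

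Aldehyde dehydrogenases oxidise reactive aldehydes to carboxylic acids with NAD or NADP. Some clear aldehydes from alcohol and lipid peroxidation, some make retinoic acid, and others carry single steps in the breakdown or synthesis of amino acids. High activity of the family is widely used to mark stem-like tumour cells. KS100 acts on the enzymes, and the counts here measure their transcripts, not their activity.

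Depth set what could be seen. The pools held 44748 counts with KS100, 25521 with KS100 and anti-PD-1, 26639 with AZD5363+MK1775, 338474 with AZD5363+MK1775 and anti-PD-1, 1002088 with anti-PD-1 alone and 1591673 in control. The limit allowed by a count of 0, taken as 3 counts, was 67.04 CPM (counts scaled to 1e6 per pool) with KS100, 118 CPM with KS100 and anti-PD-1, 112.6 CPM with AZD5363+MK1775, 8.86 CPM with AZD5363+MK1775 and anti-PD-1, 2.99 CPM with anti-PD-1 alone and 1.88 CPM in control. In the 3 shallowest pools a gene with no count could thus lie above the control level of most of these enzymes. The 8 melanocyte markers summed to 2508 to 10382 CPM in the 4 inhibitor pools and to 18261 and 21443 CPM in the anti-PD-1 and control pools, with at least 7 of the 8 detected in each. In bulk tumour RNA, fewer cells of a type and less RNA per cell cannot be told apart.

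With 1 pool per treatment, a comparison of 2 pools has no replicate check and no p-value. There, a call of higher or lower needed 20 or more counts in either pool, a TMM-normalised difference of 2-fold or more, and a 95% interval of the ratio beyond 1.5-fold throughout. Intervals cover counting error only. Separately, the effect of each inhibitor arm and of the antibody was tested over all 6 pools with edgeR, pools with the other antibody standing in as replicates.

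The 10 genes together gave 8 counts in the KS100 pool, 10 in the pool of KS100 with anti-PD-1, 14 in the pool of AZD5363+MK1775 alone, 39 in the pool of AZD5363+MK1775 with anti-PD-1, 463 in the pool of anti-PD-1 alone and 643 in the control pool. Of the 10 genes, 5 were detected with KS100, 4 with KS100 and anti-PD-1, 5 with AZD5363+MK1775, 10 with AZD5363+MK1775 and anti-PD-1, 10 with anti-PD-1 alone and 9 in control. Scaled to depth, the sum was 179 CPM with KS100, 392 CPM with KS100 and anti-PD-1, 526 CPM with AZD5363+MK1775, 115 CPM with AZD5363+MK1775 and anti-PD-1, 462 CPM with anti-PD-1 alone and 404 CPM in control. The sum was thus lowest in the pool of AZD5363+MK1775 with anti-PD-1, the deepest of the inhibitor pools, with the KS100 pool next. A background rate was taken from genes not seen without inhibitors. Protein-coding genes with no count in the anti-PD-1 and control pools had 73.9 and 86.4 counts per megabase of exon in the KS100 and KS100+anti-PD-1 pools, a rate that would give the 10 genes 3.39 and 3.97 counts if spread evenly over exons. The same estimate was 0.324 counts for the pool of AZD5363+MK1775 alone and 2.07 for the pool of AZD5363+MK1775 with anti-PD-1.

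**Figure D1:**
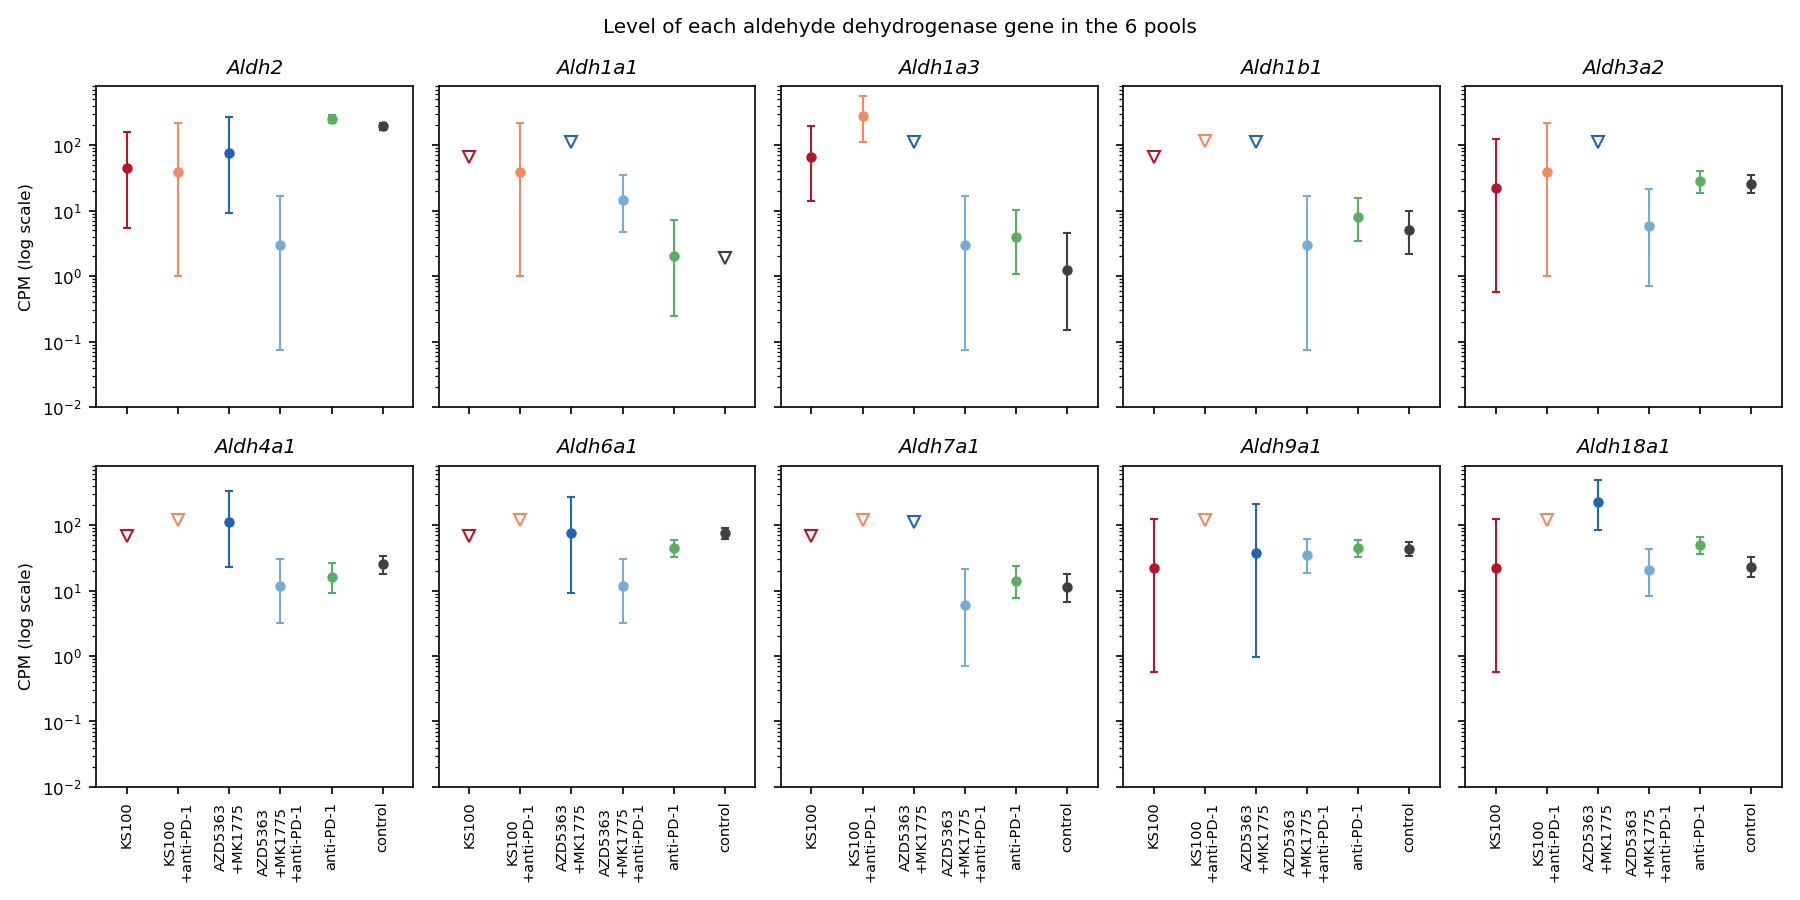
Level of each of the 10 genes in each pool, in CPM on a log axis; points are single pools, bars are exact Poisson 95% intervals, and open triangles mark a count of 0 at the level that 3 counts make in that pool. Aldh2 lay at 2.95 CPM in the pool of AZD5363+MK1775 with anti-PD-1, against 251 CPM in the pool of anti-PD-1 alone and 194 CPM in control, and Aldh1a3 was higher in the KS100 pools than in the other pools where it was detected.

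In the control pool Aldh2 was the leading member, at 60.3 counts per kilobase of exon. Aldh6a1 and Aldh9a1 followed at 20.6 and 20.4 counts per kilobase and were not apart from each other. Aldh18a1, Aldh4a1 and Aldh3a2 had 9.09, 8.15 and 7.30 counts per kilobase, on 37, 40 and 41 counts with overlapping intervals. Aldh1b1 and Aldh7a1 stood at 3.48 and 3.47 counts per kilobase, Aldh1a3 at 0.433, and Aldh1a1 had no count. Because the libraries read transcript 3′ ends, reads need not scale with exon length, and this order is that of the per-length scale.

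Aldh2 encodes the mitochondrial enzyme that clears acetaldehyde and lipid-derived aldehydes such as 4-hydroxynonenal. It lies on chromosome 5 of GRCm38, chr5:121566027-121593824, on the minus strand, and its exons overlap those of the antisense gene Gm42879, not analysed here. It had 2 counts in the KS100 pool, 1 in the pool of KS100 with anti-PD-1, 2 in the pool of AZD5363+MK1775 alone, 1 in the pool of AZD5363+MK1775 with anti-PD-1, 252 in the pool of anti-PD-1 alone and 309 in control. The 4 inhibitor pools were all low in counts, but only the pool of AZD5363+MK1775 with anti-PD-1 was deep enough for its count to be called low: at the control level it would have held 40.7 counts of Aldh2. Aldh2 was lower there than in control, at a ratio of 0.0246 (0.00062 to 0.138), and lower than in the pool of anti-PD-1 alone, at 0.0195 (0.000492 to 0.110). Of all genes tested, 8.02% were lower than control in that pool and 8.11% lower than in the pool of anti-PD-1 alone, and 14.9% and 14.0% were higher. The Aldh2 call held under all 3 other scalings, with ratios to control of 0.0152 to 0.0235. That pool stood apart in other ways. Mitochondrially encoded genes and Gm42418 took 32.7% of its counts, against 13.8% to 17.7% in the other inhibitor pools, 1.29% in the pool of anti-PD-1 alone and 1.89% in control, and leaving them out of the totals gave Aldh2 a ratio to control of 0.0222. The 6 muscle markers summed to 7454 CPM in it, against 675 CPM in the pool of anti-PD-1 alone and 49.6 CPM in control, all 6 detected in each, and their part in the Aldh2 result was not tested.

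At the control level, Aldh2 would have had 6.70 counts in the KS100 pool, 3.49 in the pool of KS100 with anti-PD-1 and 5.56 in the pool of AZD5363+MK1775 alone. Relative to control its ratio was 0.299 (0.0360 to 1.09) in the KS100 pool, 0.286 (0.00723 to 1.61) in the pool of KS100 with anti-PD-1 and 0.360 (0.0434 to 1.31) in the pool of AZD5363+MK1775 alone. None of these was past the rule, and each interval reaches the control level. In the KS100 pool Aldh2 would have been called lower only at 0 counts, and in the other 2 no count could have been called lower. The arm fit gave Aldh2 a log2 change of -3.72 (SE 1.16) for AZD5363+MK1775, with an adjusted p of 0.0817 by edgeR's quasi-likelihood test, and of -2.02 (SE 1.16) for KS100, with an adjusted p of 0.323. Neither passed, nor did any member in the AZD5363+MK1775 and anti-PD-1 effects, where 1.28% and 0.102% of the genes fitted were called higher and 0.0611% and 0.0407% lower. The AZD5363+MK1775 effect on Aldh2 rested on the pool of AZD5363+MK1775 with anti-PD-1: without it the change was -1.29 with an adjusted p of 0.999, and without the pool of AZD5363+MK1775 alone it was -5.73 with an adjusted p of 0.00852 (same edgeR test).

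**Figure D2:**
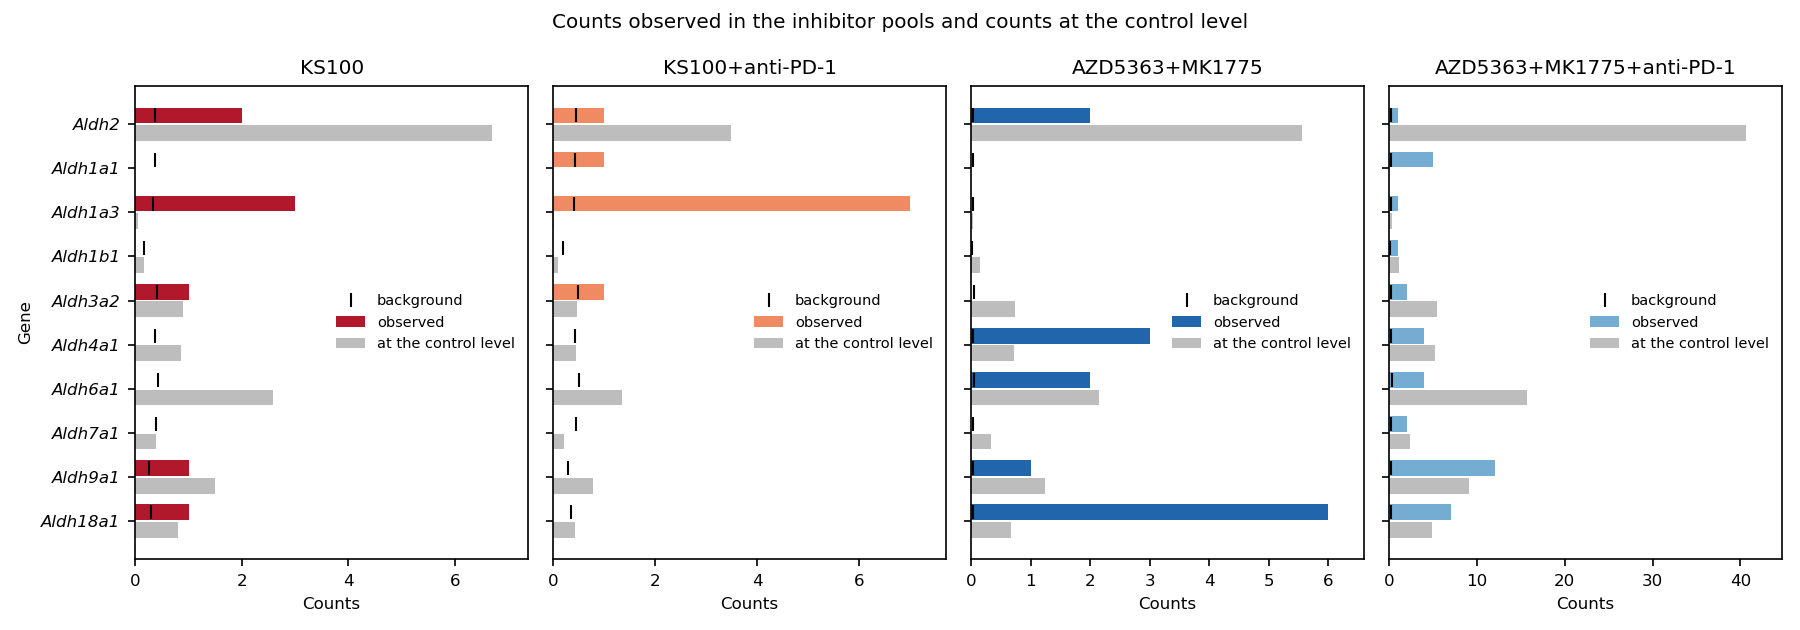
Counts observed in each of the 4 inhibitor pools (coloured bars), counts that each gene would have at the control level after TMM scaling (grey bars) and counts from the background rate (black ticks); the count axes differ between panels and start at 0. Aldh2 had 1 count in the pool of AZD5363+MK1775 with anti-PD-1, against 40.7 at the control level, while most other members would have had under 3 counts in the shallow pools.

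The make-up of the family's counts needs no scaling between pools. Aldh2 took 25.0% of the 10 genes' counts in the KS100 pool (3.19 to 65.1, exact Clopper-Pearson interval), 10% in the pool of KS100 with anti-PD-1 (0.253 to 44.5), 14.3% in the pool of AZD5363+MK1775 alone (1.78 to 42.8), 2.56% in the pool of AZD5363+MK1775 with anti-PD-1 (0.0649 to 13.5), 54.4% in the pool of anti-PD-1 alone (49.8 to 59.0) and 48.1% in control (44.1 to 52.0). Only the intervals of the AZD5363+MK1775 pools lay wholly below that of control. Aldh9a1 led the pool of AZD5363+MK1775 with anti-PD-1, with 30.8% of counts (17.0 to 47.6), against 9.72% in the pool of anti-PD-1 alone (7.18 to 12.8) and 10.7% in control (8.45 to 13.4). Its own ratio to control there was 1.32 (0.651 to 2.46), an interval that holds the control level.

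**Figure D3:**
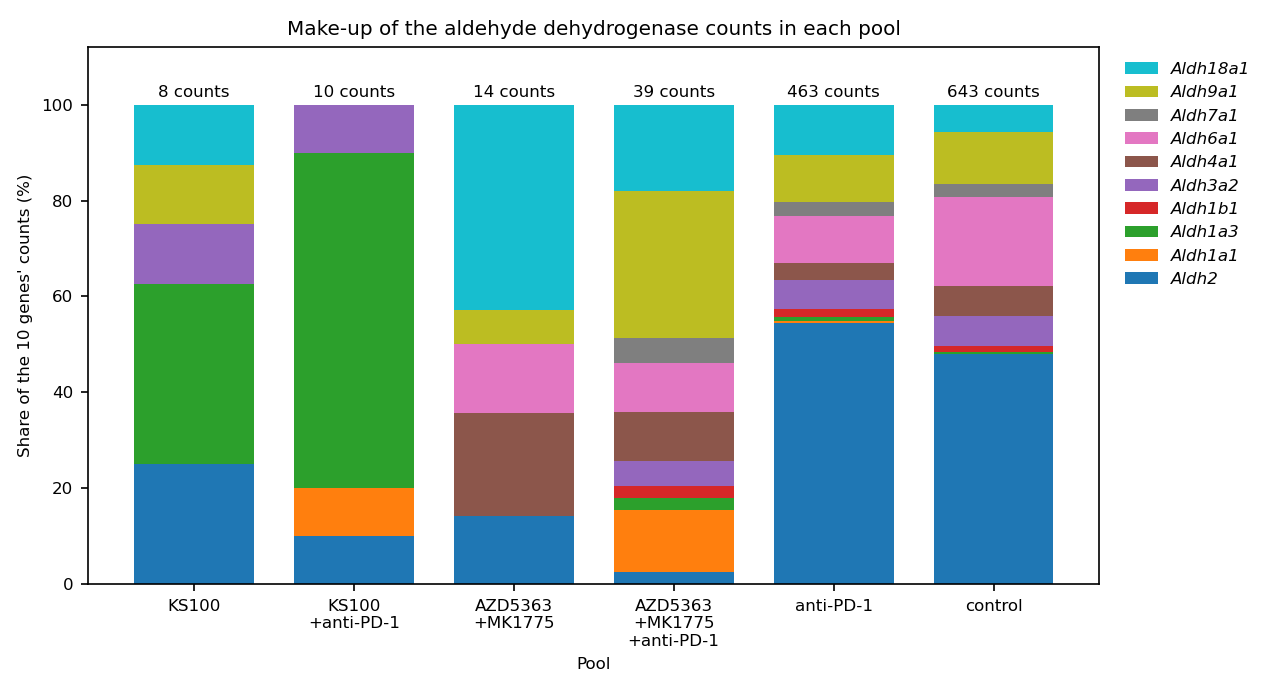
Share of the 10 genes' counts taken by each gene in each pool, as stacked percentages, with the number of counts above each bar. Aldh2 took 2.56% in the pool of AZD5363+MK1775 with anti-PD-1, against 54.4% in the pool of anti-PD-1 alone and 48.1% in control, and Aldh1a3 took 70.0% of the 10 counts of the pool of KS100 with anti-PD-1.

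Aldh1a1 and Aldh1a3 encode cytosolic enzymes that oxidise retinal to retinoic acid. Aldh1a3 (chr7:66390890-66427517, minus strand) had 3 counts in the KS100 pool, 7 in the pool of KS100 with anti-PD-1, none in the pool of AZD5363+MK1775 alone, 1 in the pool of AZD5363+MK1775 with anti-PD-1, 4 in the pool of anti-PD-1 alone and 2 in control. Its levels were 67.04 CPM and 274 CPM in the KS100 pools, against 3.99 CPM in the pool of anti-PD-1 alone and 1.26 CPM in control. The KS100 pools were both above the others in which it was detected, and the counts are few. The background rate would give it 0.341 and 0.399 counts in the KS100 and KS100+anti-PD-1 pools. Its ratio was 69.2 (7.93 to 829) for KS100 over control, 310 (59.0 to 3057) for KS100+anti-PD-1 over control and 100.3 (25.5 to 467) for KS100+anti-PD-1 over anti-PD-1.

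Aldh1a3 was under the minimum of 20 counts in every pool, so the rule for 2 pools could not call it. With no minimum it would have been called higher in all 3 KS100 comparisons, as would 12.4%, 27.4% and 13.9% of all genes with a count in either pool. The low-count filter of the arm fit kept 3 of the 10 members, and it kept Aldh1a3 only through the KS100 pools, where it is high, so that gene had to differ to be fitted at all. Its log2 change of 6.28 (SE 1.21) for KS100 is therefore given as a description, beside 7.21% of the 4912 genes fitted called higher and 0.489% lower. With no low-count filter its log2 change was 5.87, in a fit where 6.33% of 19725 genes were called higher. That value too is given as a description, since the counts in the KS100 pools are few. The filtered fit did not keep the gene without the pool of KS100 alone, of KS100 with anti-PD-1, or of anti-PD-1 alone. Without the pool of AZD5363+MK1775 with anti-PD-1 the gene was kept but not called. For AZD5363+MK1775 its log2 change was 0.07 (SE 1.27), a value whose sign differed under other scalings.

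The KS100 pools were also shallow, had a high background rate and differed from control in markers of other cells. Ttn, a muscle gene, was called higher in the same KS100 arm fit. It gave 8 of 9 and 14 of 17 muscle marker counts in the KS100 and KS100+anti-PD-1 pools, and Acta1 had 0 in both. Background counts, which grow with exon length, were not worked out for these markers, and their part in the Ttn counts was not tested. Pecam1, an endothelial gene, was also higher in that fit, but entered it only through the KS100 pools, where it is high. The 6 endothelial markers summed to 380 CPM and 353 CPM in the KS100 and KS100+anti-PD-1 pools, against 385 CPM in the pool of anti-PD-1 alone and 174 CPM in control, with 3, 4, 6 and 6 of the 6 detected. The 6 muscle markers summed to 201 CPM and 666 CPM in the KS100 pools, against 675 CPM in the pool of anti-PD-1 alone and 49.6 CPM in control, with 2, 3, 6 and 6 detected in these pools. The 7 fibroblast markers summed to 402 CPM and 431 CPM in the KS100 pools, against 1664 CPM in the pool of anti-PD-1 alone and 127 CPM in control, with 4, 3, 7 and 7 detected. Relative to control their sum was 4.11-fold (2.39 to 6.67) in the KS100 pool, with Col1a2 called higher, and 4.82-fold (2.37 to 8.81) in the pool of KS100 with anti-PD-1, with Col1a1 and Col3a1 called higher. The 5 keratinocyte markers had 3 and 2 counts in the KS100 pools, 2 in the pool of anti-PD-1 alone and none in control. Their part in the Aldh1a3 counts was not tested.

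Aldh1a1 had at most 5 counts in any pool: none in the KS100 pool, 1 in the pool of KS100 with anti-PD-1, none in the pool of AZD5363+MK1775 alone, 5 in the pool of AZD5363+MK1775 with anti-PD-1, 2 in the pool of anti-PD-1 alone and none in control. The interval of its ratio to control in the pool of AZD5363+MK1775 with anti-PD-1 began at 6.96-fold, on too few counts for a call. With no minimum count it would have been called higher than in control and in the pool of anti-PD-1 alone, as would 14.4% and 12.9% of all genes with a count in either pool. The part of the muscle markers of that pool, given above, in the 5 counts was not tested. Aldh1a1 has a near-identical paralog, Aldh1a7, which was listed at 0 in every pool, and counting may split or drop reads that match both. Around these enzymes, the other retinoid genes gave 0 higher and 0 lower of 5 tested in the KS100 and KS100+anti-PD-1 pools against control. In the pool of AZD5363+MK1775 with anti-PD-1 the retinoid receptor gene Rxra was lower, with 0 counts against 68 in control and a ratio of at most 0.423 by its interval. It was the 1 called of 5 tested, beside 8.02% of all genes lower and 14.9% higher. Against the pool of anti-PD-1 alone, 4 were tested in that pool. Rxra was again lower, on 0 counts against 39, and Rdh11, a retinal reductase gene, was higher at 3.62-fold (2.14 to 6.06). Of all genes tested, 8.11% were lower and 14.0% higher in that comparison. In the pool of anti-PD-1 alone against control, Rdh11 was lower at 0.381 (0.260 to 0.547). Cyp26b1, whose enzyme degrades retinoic acid, was higher at 2.53-fold (1.74 to 3.72), and Rara, a retinoic acid receptor gene, at 2.33-fold (1.59 to 3.45). That made 2 higher and 1 lower of 5 tested, beside 2.69% of all genes higher and 2.14% lower.

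Aldh18a1 and Aldh4a1 act at opposite ends of proline metabolism. Aldh18a1 encodes the synthase that turns glutamate into pyrroline-5-carboxylate, from which proline and ornithine are made, and Aldh4a1 encodes the mitochondrial enzyme that turns pyrroline-5-carboxylate back into glutamate. Their promoters are shown because Aldh18a1 was the only member called higher in a comparison of 2 pools, and Aldh4a1 is its opposing enzyme. Both windows run from 250 bases before to 50 bases after the RefSeq start in GRCm38.p6, 5′ to 3′ on the gene's strand, with CpG dinucleotides in capitals. They lie at chr19:40588414-40588713 on the minus strand and chr4:139622644-139622943 on the plus strand.
Aldh18a1: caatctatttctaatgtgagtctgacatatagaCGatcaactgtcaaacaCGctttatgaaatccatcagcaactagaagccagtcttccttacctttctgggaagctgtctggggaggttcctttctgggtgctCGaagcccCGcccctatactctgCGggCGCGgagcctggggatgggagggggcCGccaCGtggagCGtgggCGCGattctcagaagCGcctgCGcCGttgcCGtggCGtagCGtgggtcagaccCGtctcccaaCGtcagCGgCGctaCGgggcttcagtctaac
Aldh4a1: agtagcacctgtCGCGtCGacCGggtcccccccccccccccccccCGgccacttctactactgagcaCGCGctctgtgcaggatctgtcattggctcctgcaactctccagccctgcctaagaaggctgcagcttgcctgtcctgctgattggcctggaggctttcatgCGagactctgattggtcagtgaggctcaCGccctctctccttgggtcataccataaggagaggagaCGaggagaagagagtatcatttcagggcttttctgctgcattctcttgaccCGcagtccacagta
The Aldh18a1 window holds 23 CpG dinucleotides and the Aldh4a1 window 11, against a median of 7 over 32851 RefSeq windows. RefSeq windows were at hand for 7 of the 10 members. On both strands, the letters TGATGNAA, a form of the element bound by ATF4, match neither window, and are found in 3.97% of all windows. The letters TGACNNNGC, the core of the antioxidant response element, match neither window either, and are found in 12.4% of all windows. Of the members with a window, only that of Aldh9a1 holds the second motif.

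Aldh18a1 (chr19:40550257-40588463, minus strand) had 1 count in the KS100 pool, none in the pool of KS100 with anti-PD-1, 6 in the pool of AZD5363+MK1775 alone, 7 in the pool of AZD5363+MK1775 with anti-PD-1, 49 in the pool of anti-PD-1 alone and 37 in control. It was higher in the pool of AZD5363+MK1775 alone than in control, at 9.02-fold (3.11 to 21.5), where 0.665 counts would have stood at the control level. It took 42.9% of that pool's family counts (17.7 to 71.1), against 5.75% in control (4.08 to 7.84). Of all genes tested, 1.65% were higher in that pool and 1.28% lower. With anti-PD-1 added to the same inhibitors its ratio to control was 1.44 (0.541 to 3.27), not past the rule, so the call rests on the shallower AZD5363+MK1775 pool alone. With anti-PD-1 alone its ratio to control was 2.05 (1.31 to 3.22), which missed the rule because the interval began below 1.5-fold. No member passed in that comparison, where 2.69% of all genes were higher and 2.14% lower.

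Aldh4a1 had no count in the KS100 and KS100+anti-PD-1 pools, 3 in the pool of AZD5363+MK1775 alone, 4 in the pool of AZD5363+MK1775 with anti-PD-1, 16 in the pool of anti-PD-1 alone and 40 in control. Its exons overlap those of Gm21969 on the same strand, which was at 0 in every pool. How reads that fall in both genes were counted is not known, so the Aldh4a1 counts may be too low. Relative to control its ratio was 4.17 (0.825 to 13.1) in the pool of AZD5363+MK1775 alone, 0.760 (0.197 to 2.101) with the antibody added and 0.618 (0.323 to 1.13) in the pool of anti-PD-1 alone. None was past the rule. Among the other genes of proline and ornithine synthesis, 6 of them tested in each inhibitor pool against control, Oat, whose enzyme links ornithine to pyrroline-5-carboxylate, was lower in the KS100 pool than in control at 0.0821 (0.00208 to 0.459), on 1 count against 562. No gene of the list was called in the pool of AZD5363+MK1775 alone. Arg1, an arginase gene, was higher in the pool of anti-PD-1 alone than in control, on 23 counts against 1, a ratio of 35.5 (5.77 to 1463).

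Aldh6a1 encodes a mitochondrial semialdehyde dehydrogenase of valine breakdown. It had no count in the KS100 and KS100+anti-PD-1 pools, 2 in the pool of AZD5363+MK1775 alone, 4 in the pool of AZD5363+MK1775 with anti-PD-1, 45 in the pool of anti-PD-1 alone and 119 in control. Its exons overlap those of Bbof1 on the other strand, which had at most 3 counts in any pool. The interval of its ratio to control reached 1.45 in the KS100 pool and 2.79 in the pool of KS100 with anti-PD-1, so a level equal to that of control was not distinguishable at this depth. The ratio with AZD5363+MK1775 and anti-PD-1 was 0.255 (0.0685 to 0.671), which missed the rule by the edge of its interval and passed it under 3 other scalings. It was 0.584 (0.405 to 0.829) with anti-PD-1 alone, not past the rule. The arm effects of Aldh6a1 did not pass either, with adjusted p of 0.297 for KS100 and 0.912 for AZD5363+MK1775 by edgeR's quasi-likelihood test. Of 13 other genes of branched-chain amino acid breakdown tested against control, 1 was called in the KS100 pool. Mut, the methylmalonyl-CoA mutase gene, was higher there at 4.65-fold (2.41 to 8.24), beside 4.5% of all genes higher and 1.86% lower. None was called in the pools of AZD5363+MK1775 alone and with anti-PD-1, where 1.65% and 14.9% of all genes were higher and 1.28% and 8.02% lower. Against the pool of anti-PD-1 alone, Bcat1 was lower with AZD5363+MK1775 and anti-PD-1, at 0.211 (0.0425 to 0.642). It was the 1 called of 9 tested, beside 8.11% of all genes lower. The KS100 arm fit kept 9 genes of the list. Hibch, a hydrolase gene of valine breakdown, was the 1 called, beside 7.21% of the genes fitted called higher and 0.489% lower. Hibch had 3 and 5 counts in the KS100 and KS100+anti-PD-1 pools, against 8 in the pool of anti-PD-1 alone and 14 in control. It entered the fit only through the KS100 pools, where it is high. Its log2 change of 4.23 (SE 1.14) is therefore given as a description.

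Aldh9a1 encodes an enzyme of carnitine synthesis. It had 1 count in the KS100 pool, none in the pool of KS100 with anti-PD-1, 1 in the pool of AZD5363+MK1775 alone, 12 in the pool of AZD5363+MK1775 with anti-PD-1, 45 in the pool of anti-PD-1 alone and 69 in control. Its level was 35.5 CPM with AZD5363+MK1775 and anti-PD-1, 44.9 CPM with anti-PD-1 alone and 43.4 CPM in control, with overlapping intervals. Aldh7a1 encodes the enzyme of lysine breakdown that oxidises aminoadipate semialdehyde. It had no count in the KS100, KS100+anti-PD-1 and AZD5363+MK1775 pools, 2 in the pool of AZD5363+MK1775 with anti-PD-1, 14 in the pool of anti-PD-1 alone and 18 in control, under the minimum throughout. Its exons overlap those of Phax on the other strand, which had 12 counts with AZD5363+MK1775 and anti-PD-1, 43 with anti-PD-1 alone and 66 in control. Without the strand setting of the counting the reads of the pair cannot be told apart. In the lists of lysine and carnitine genes, no more than 1 gene was tested in any comparison of 2 pools. That gene, Abat, an aminotransferase of the GABA pathway, was lower in the pool of anti-PD-1 alone than in control at 0.185 (0.0358 to 0.607). The arm fit kept a different gene of the list, Aass, whose enzyme starts lysine breakdown. Like Aldh1a3, Aass entered the fit only through the KS100 pools, where it is high. Its log2 change of 6.08 (SE 1.17) for KS100 is therefore given as a description, beside 7.21% of the genes fitted called higher. Aass had 5 counts in each KS100 pool, none in the pool of AZD5363+MK1775 alone, 1 in the pool of AZD5363+MK1775 with anti-PD-1, 4 in the pool of anti-PD-1 alone and 3 in control, counts as few as those of Aldh1a3.

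Aldh3a2 encodes the enzyme of the endoplasmic reticulum that oxidises long-chain fatty aldehydes. It had 1 count in each KS100 pool, none in the pool of AZD5363+MK1775 alone, 2 in the pool of AZD5363+MK1775 with anti-PD-1, 28 in the pool of anti-PD-1 alone and 41 in control. Relative to control its ratio was 0.371 (0.0434 to 1.43) in the pool of AZD5363+MK1775 with anti-PD-1 and 1.05 (0.628 to 1.75) in the pool of anti-PD-1 alone, neither past the rule. Aldh1b1, a mitochondrial relative of Aldh2 that also oxidises acetaldehyde, had no count in the KS100 pools and that of AZD5363+MK1775 alone, 1 in the pool of AZD5363+MK1775 with anti-PD-1, and 8 in both the anti-PD-1 and control pools. It was under the minimum throughout.

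**Figure D4:**
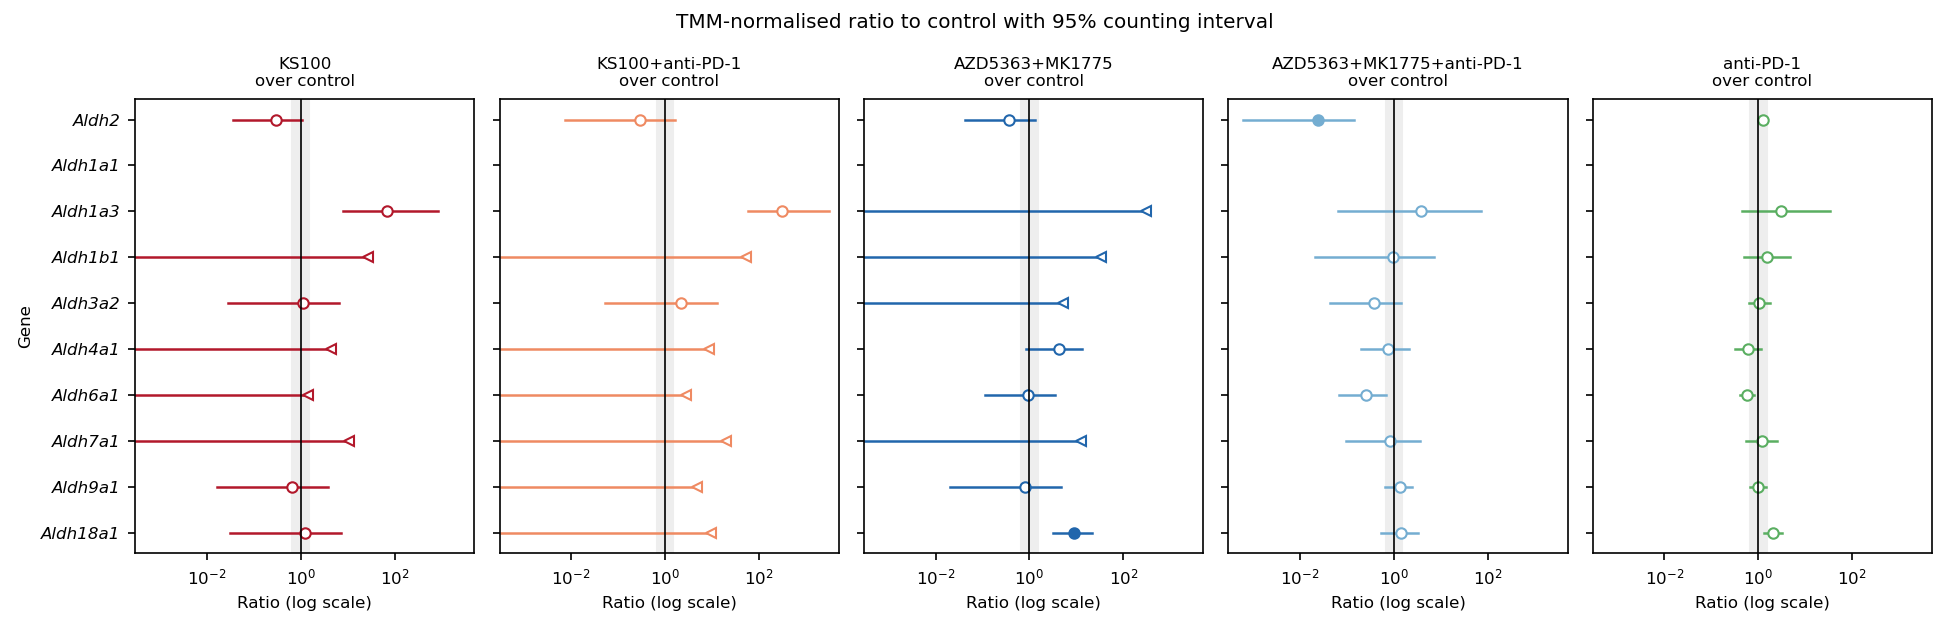
TMM-normalised ratio of each gene in the 4 inhibitor pools and the pool of anti-PD-1 alone over control, on a log axis, with 95% counting intervals; filled circles passed the rule, open circles did not, triangles end the interval of a gene at 0 counts, the grey band spans 1.5-fold either way, and Aldh1a1 is left out because control had none. Aldh2 in the pool of AZD5363+MK1775 with anti-PD-1 and Aldh18a1 in the pool of AZD5363+MK1775 alone are the only filled points.

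As a sum, the 10 genes were at 0.574 (0.247 to 1.14) of control in the KS100 pool and at 1.38 (0.657 to 2.55) in the pool of KS100 with anti-PD-1, neither past the rule. No member was called in either comparison, where 4.5% and 4.59% of all genes were higher and 1.86% and 2.86% lower. Against the pool of anti-PD-1 alone, the KS100+anti-PD-1 sum was at 1.24 (0.590 to 2.30), again with no member called beside 3.33% of genes higher and 3.06% lower. Aldh1a3 carried much of these sums: without it they were 0.360, 0.414 and 0.375, alternatives added after the data were seen, and none was past the rule. With AZD5363+MK1775 alone the sum was at 1.21 (0.658 to 2.05) of control. In the pool of AZD5363+MK1775 with anti-PD-1 it was lower than control, at 0.461 (0.325 to 0.637), and lower than the pool of anti-PD-1 alone, at 0.414 (0.291 to 0.575). Aldh2 alone moved both past the rule, since without it the ratios were 0.864 and 0.886. The 6 members tested against control in that pool had a median log2 ratio of -0.80, beside -0.0075 for all 8059 genes tested. They met the minimum through the control pool.

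Other aldehyde dehydrogenases were sparser. Of 11 further family genes, 3 had enough counts for the comparisons with control, and Aldh3a1 was listed at 0 in every pool. Aldh1l2, which encodes a mitochondrial enzyme of folate metabolism, had 0 and 1 counts in the KS100 and KS100+anti-PD-1 pools, 1 and 8 in the AZD5363+MK1775 pools, 134 in the pool of anti-PD-1 alone and 58 in control. It was 3.57-fold higher in the pool of anti-PD-1 alone than in control (2.60 to 4.94) and lower in the pool of AZD5363+MK1775 with anti-PD-1 than in the pool of anti-PD-1 alone, at 0.294 (0.124 to 0.595). The anti-PD-1 pool also held 1664 CPM of the 7 fibroblast markers, against 127 CPM in control, all 7 detected in both, and their part in this difference was not tested.

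Enzymes that clear aldehydes by other routes, and enzymes that share the mitochondrial matrix with Aldh2, were lower in some of the same pools. Of 7 other aldehyde-clearing enzymes tested against control, 1 was lower in the KS100 pool, none was called in the KS100+anti-PD-1 and AZD5363+MK1775 pools, and 3 were lower in the pool of AZD5363+MK1775 with anti-PD-1, beside 1.86% of all genes tested that were lower in the KS100 pool and 8.02% in the pool of AZD5363+MK1775 with anti-PD-1. Gsta4, a glutathione transferase gene acting on 4-hydroxynonenal, had 0 counts in the KS100 pool and 271 in control, a ratio of at most 0.632 by its interval. In the pool of AZD5363+MK1775 with anti-PD-1 it was at 0.140 (0.0451 to 0.331), and the alcohol dehydrogenase gene Adh5 was at 0.335 (0.176 to 0.581). Of 15 matrix enzyme genes, 5 were lower in the KS100 pool, 2 in the pool of KS100 with anti-PD-1, none in the pool of AZD5363+MK1775 alone and 3 in the pool of AZD5363+MK1775 with anti-PD-1, and none was higher than control in these. Of all genes tested, 1.86%, 2.86%, 1.28% and 8.02% were lower than control in these 4 pools. Their sum was at 0.376 (0.288 to 0.482) of control in the KS100 pool, 0.209 (0.124 to 0.331) in the pool of KS100 with anti-PD-1, 0.599 (0.476 to 0.744) in the pool of AZD5363+MK1775 alone and 0.550 (0.503 to 0.600) in the pool of AZD5363+MK1775 with anti-PD-1. Idh2, the mitochondrial NADP isocitrate dehydrogenase gene, was at 0.156 (0.114 to 0.208) in the pool of AZD5363+MK1775 with anti-PD-1, beside 0.0246 (0.00062 to 0.138) for Aldh2, with overlapping intervals. On the same scale the 8 melanocyte markers summed to 0.285 (0.248 to 0.327) of control in the KS100 pool and 0.166 (0.128 to 0.212) with anti-PD-1 added. They summed to 0.441 (0.390 to 0.498) in the pool of AZD5363+MK1775 alone and 0.782 (0.755 to 0.810) in the pool of AZD5363+MK1775 with anti-PD-1. Their part in these values was not tested.

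The pattern of Aldh2 over the 6 pools was compared with that of 3293 protein-coding genes with at least 100 control counts, by the Euclidean distance of log2(CPM + 20). The 5 nearest were Sav1 at 1.077, Rad1 at 1.09, Fxr2 at 1.16, Tmem161a at 1.25 and Naf1 at 1.29. In the pool of AZD5363+MK1775 with anti-PD-1 these genes had 6, 7, 8, 3 and 10 counts, against 1 for Aldh2, and in control they had 305, 391, 384, 324 and 267, against 309. The likeness is a description over 6 pools that differ in depth.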

How the data were processed

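The deposited table holds raw counts of reads for each Ensembl mouse gene, made by the authors from QuantSeq 3′ FWD libraries run on a MiSeq, per the labels' protocols. The submitters' processing notes name bcl2fastq, HISAT2 2.1.0, HTSeq and GRCm38. For strand setting, annotation release and multiply matching reads, values were not given in the sources used here. Besides genes, the table held 92 spike-in names, all at 0. Symbols, coordinates (GRCm38, from 1) and exon lengths came from GENCODE M21.

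The 10 members and the gene lists were chosen with earlier results of these data known. All members are named; of each list, at most 3 called genes are named per comparison, by distance of the ratio from 1. Aldh2's neighbours were ranked on log2(CPM + 20). The arm fit (edgeR 4.0.16, R 4.3.3) used inhibitor arm plus antibody as additive terms, with TMM, filterByExpr (4912 genes kept) and the quasi-likelihood test, with calls at a Benjamini-Hochberg adjusted p under 0.05. It left 2 residual degrees of freedom, and pools of another treatment served as replicates. The SE is the log2 change divided by the root of F, a rough guide only. Ratios between 2 pools have exact conditional intervals (scipy 1.17.1), and medians of log2 ratios use a prior count of 2. Such p-values measure only the spread between these pools. Scripts were tested on simulated data. Alternatives were DESeq2 1.42.0, other scalings, other minimum counts and leaving out each pool.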

Additional observations from a re-analysis of the deposited data

Results flagged for a closer look

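Aldh1a3 had unlike values in the inhibitor arms. Its log2 change was 6.28 for KS100 and 0.07 for AZD5363+MK1775, a difference of 6.21 (SE 1.64) in a contrast of edgeR's fit added after the data were seen. The gene had 3 and 7 counts in the KS100 and KS100+anti-PD-1 pools, against 0 and 1 in the AZD5363+MK1775 and AZD5363+MK1775+anti-PD-1 pools. It entered the fit only through the KS100 pools, where it is high, so the difference was a condition of being fitted and is given as a description, with no test.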

How the results depend on the processing

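No paired analysis was possible because each treatment has 1 pool and no replicate numbers join them. Over all genes, 378 were called for KS100, 66 for AZD5363+MK1775 and 7 for anti-PD-1 (edgeR). With library totals the AZD5363+MK1775 and anti-PD-1 counts were 25 and 12. With no low-count filter KS100 had 1270 and anti-PD-1 had 2. DESeq2's Wald test gave 868, 16 and 3. Leaving out a pool gave 14 to 290 for KS100, 9 to 203 for AZD5363+MK1775 and 0 to 14 for anti-PD-1; the KS100 count was 14 without the KS100 pool, 69 without KS100+anti-PD-1, 110 without anti-PD-1, 169 without control and 225 without AZD5363+MK1775+anti-PD-1. The 0 was without the pool of AZD5363+MK1775 alone, with 107 genes at an unadjusted p under 0.05. In these fits a lone pool is assumed to vary like the others. The Aldh1a3 effect of AZD5363+MK1775 turned to -0.023 with DESeq2 size factors, -0.56 with library totals and -2.29 without the pool of AZD5363+MK1775 with anti-PD-1 (-2.29 to 0.35 over pools left out); that of anti-PD-1 on Aldh2, -0.35, turned to 0.29 without AZD5363+MK1775 and 0.42 without AZD5363+MK1775+anti-PD-1 (-1.88 to 0.42 over pools left out). The causes were not tested. Without Aldh2 the summed ratio was 2.44 for KS100+anti-PD-1 over anti-PD-1, 0.864 for AZD5363+MK1775+anti-PD-1 over control, 0.886 over anti-PD-1, and 0.976 for anti-PD-1 over control. Without Aldh1a3 it was 0.414 and 0.375 for KS100+anti-PD-1 over control and over anti-PD-1. With library totals it was 0.285 and 0.249 for AZD5363+MK1775+anti-PD-1 over control and over anti-PD-1. With no minimum count, 1 member was called for KS100 over control (Aldh1a3), 2 for KS100+anti-PD-1 over control (Aldh1a1, Aldh1a3), 1 over anti-PD-1 (Aldh1a3), and 2 for AZD5363+MK1775+anti-PD-1 over control and over anti-PD-1 (Aldh2, Aldh1a1). With DESeq2 size factors, library totals, or totals without mitochondrial genes and Gm42418, 2 were called for AZD5363+MK1775+anti-PD-1 over control, Aldh2 and Aldh6a1. Depth limits the rest: in the KS100+anti-PD-1 and AZD5363+MK1775 pools no member could be called lower at any count.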
